A study of Chlamydomonas reinhardtii with 12 samples.

Results

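This account concerns 150 genes of the green alga *Chlamydomonas reinhardtii* whose transcript level moved in opposite directions under high light in the wild type (WT) and in the *phot* mutant. They were drawn from 17741 genes. A gene qualified if its mean level reached 1 CPM (a count scaled to a common library total) in all 4 groups of libraries, which held for 12481 genes, and if its response to high light was of opposite sign in the genotypes, with an absolute change of at least 0.5 in each. The response was taken as the difference in log2(mean CPM + 1). A total of 264 genes met these thresholds, and the 150 with the largest gap between both responses were taken. Of these, 51 were higher in high light in WT and lower in *phot* (called WT-up here), and 99 were lower in WT and higher in *phot* (WT-down). These responses, and the difference between them, chose the genes, so they are given as a description and were not tested.

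The libraries came from strain CC-125, which served as WT, and from 1 mutant line, *phot*, which lacks most of the transcript of *PHOT1*. Both had been grown in a medium with acetate (TAP) and were moved to a mineral medium without it (Sueoka's high salt medium, HSM) at 5 µmol photons per square metre and second (low light, LL). The LL libraries were sampled before, and the high light (HL) libraries after, 60 min at 300 µmol photons per square metre and second, so light and the later time of sampling cannot be told apart. Each of the 4 groups (WT LL, WT HL, *phot* LL and *phot* HL) had 3 libraries, called A, B and C below, which are names only and link no library of one group to one of another. With a single mutant line, an effect of *PHOT1* and any other difference between the strains cannot be told apart. The sources describe the libraries as biological replicates but do not say which shared a culture, so the p-values below measure the spread between these libraries.

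Phototropin is the blue-light photoreceptor of this alga, a kinase that is switched on by light through flavin-binding domains, and it is known to take part in the induction of photoprotection genes, in phototaxis and in the sexual cycle. Under strong light the alga typically lowers transcripts of its light-harvesting antenna and raises those of stress-related antenna proteins that dissipate excess energy. The carbon concentrating mechanism (CCM) brings CO2 to Rubisco, which is packed in a compartment of the chloroplast called the pyrenoid.

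The libraries held 27136674 to 33906264 counts. *PHOT1* (Cre03.g199000) had 6074 to 8263 counts in the 6 WT libraries and 115 to 181 in the 6 *phot* libraries, so every library fitted its genotype label. The light label is not checked by this gene, whose CPM overlapped between WT LL and WT HL. Composition differed between the groups. The 20 genes with the most counts took 20.8 to 23.9% of counts in WT LL and 14.2 to 19.2% elsewhere. The scaling factors that correct for this (trimmed mean of M-values, TMM, multiplied by the library total) were 0.66 to 0.86 in WT LL, 0.88 to 1.00 in WT HL, 1.09 to 1.21 in *phot* LL and 1.13 to 1.23 in *phot* HL. On the CPM scale the median WT response of the 12481 genes was therefore 0.33, against 0.09 after TMM scaling, while the median *phot* response was 0.06 and 0.05. In such libraries a higher level of 1 gene and a lower level of the others cannot be told apart.

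Among the 99 WT-down genes, the median of the group means was 28.4 CPM in WT LL and 10.05 CPM in WT HL. In *phot* it was 24.1 CPM in LL and 46.0 CPM in HL. Their median response was -1.23 in WT and 0.86 in *phot*, and the change was larger in WT for 72 of the 99. Among the 51 WT-up genes the corresponding medians were 11.1 and 22.2 CPM in WT and 27.4 and 14.7 CPM in *phot*, with median responses of 1.03 and -0.90. Both responses were at least 1 in size for 28 of the WT-down and 3 of the WT-up genes.

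**Figure D1:**
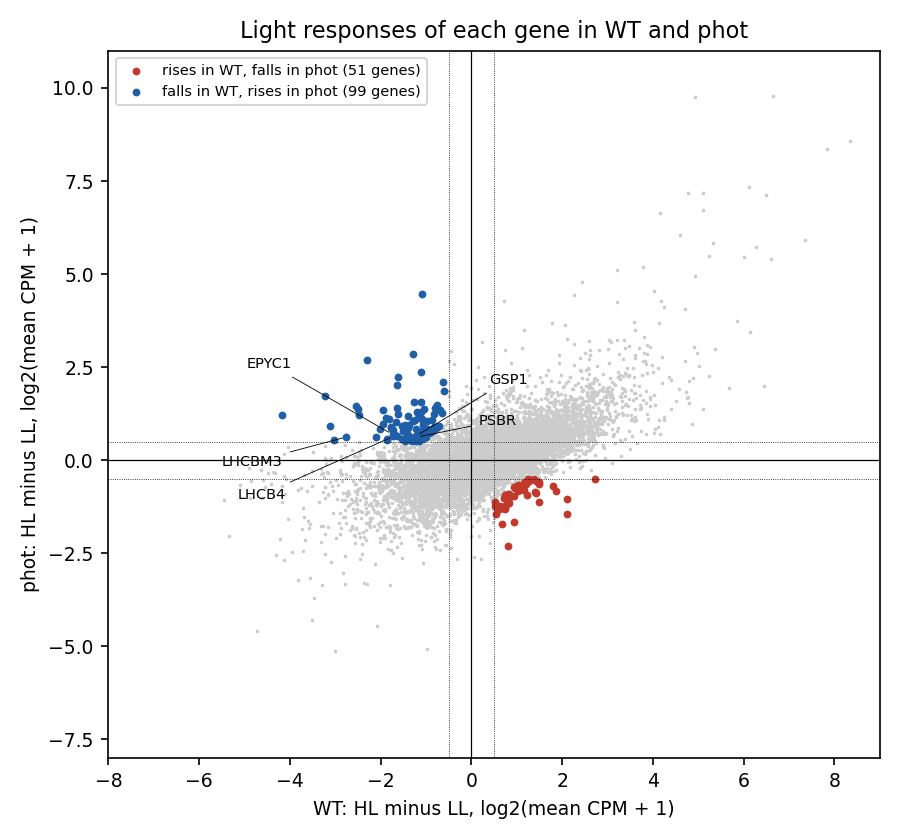
Response to high light in WT (horizontal axis) and in *phot* (vertical axis), each as HL minus LL in log2(mean CPM + 1), for the 12481 genes with at least 1 CPM in all groups (grey), the 51 WT-up genes (red) and the 99 WT-down genes (blue); dotted lines mark 0.5 in each direction. The coloured points fill the outer parts of the quadrants of unequal sign because the rule took them there.

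The LL and HL libraries of WT did not overlap for 144 of the 150 genes, and those of *phot* for all 150, against 68.1% and 67.9% of the 12481 genes. Neither genotype's libraries overlapped for 144 genes (49.4% of the 12481). These measures are part of what the rule used, and nothing is read from them. The genes with overlapping WT libraries were Cre01.g050500, Cre13.g590450, Cre16.g690506, Cre12.g541400, Cre12.g549450 and Cre06.g293750, named here after their values were seen. The median SD of log2(CPM + 1) within groups for the 150 was 0.24 (LL) and 0.28 (HL) in WT, against 0.21 and 0.16 over the 12481 genes. In *phot* it was 0.16 and 0.13, against 0.12 and 0.11. The wider spread in WT HL lay with the WT-down genes, at 0.34, against 0.19 for the WT-up genes. Without WT HL library A, 97 of the 99 WT-down and 49 of the 51 WT-up genes still met the thresholds. Single WT responses moved either way, from -1.29 to -0.92 for Cre17.g706600 and from -1.26 to -1.53 for Cre05.g243450.

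**Figure D2:**
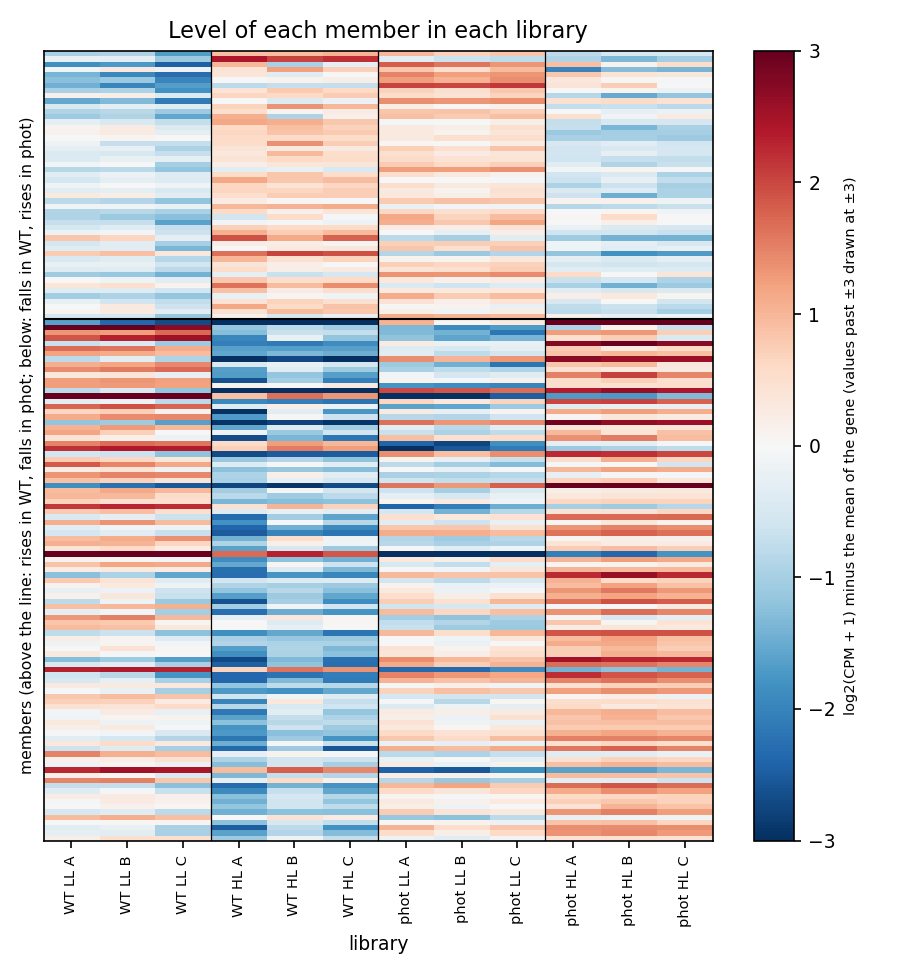
Level of each of the 150 genes (rows) in each of the 12 libraries (columns), as log2(CPM + 1) minus the gene's mean over all libraries, with values past 3 in either direction drawn at 3; the black line separates the 51 WT-up genes (top) from the 99 WT-down genes. From LL to HL the group means move towards red in WT and towards blue in *phot* above the line, and the reverse below it. Rows with uniform red or blue over the 6 WT libraries are genes that also differed between the genotypes averaged over light. In such rows the WT HL columns can be blue above the line or red below it.

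Named WT-down genes included parts of photosystem II and its antenna. *LHCBM3* (Cre04.g232104, chromosome 4) encodes a major light-harvesting protein of photosystem II. It stood at 369, 471 and 284 CPM in the libraries A, B and C of WT LL and at 46.9, 66.6 and 50.3 CPM in WT HL. In *phot*, levels reached 2491, 2332 and 2033 CPM in LL and at 3268, 3881 and 3402 CPM in HL. Every WT HL library was thus below every WT LL library, every *phot* HL library was above every *phot* LL library, and all *phot* libraries were above all WT libraries. The response was -2.76 ± 0.26 in WT and 0.62 ± 0.11 in *phot* (SE from the spread of the libraries, n = 3 per group, here and below).

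*LHCB4* (Cre17.g720250, chromosome 17) encodes CP29, a minor antenna protein that links the major antenna to the core of photosystem II. Its levels were 784, 914 and 713 CPM in WT LL and 199.97, 281 and 249 CPM in WT HL. In *phot* they were 2454, 2417 and 2165 CPM in LL and 3523, 3877 and 3547 CPM in HL. The order of the groups was that of *LHCBM3*, with no overlap between any of the 4 groups. The response was -1.72 ± 0.18 in WT and 0.64 ± 0.07 in *phot*.

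*PSBR* (Cre06.g261000, chromosome 6) encodes a small subunit of photosystem II on the side of the oxygen-evolving complex. It had 3933, 3942 and 4071 CPM in WT LL against 1419.9, 1928 and 1822 CPM in WT HL. In *phot* it had 3147, 3590.3 and 3074 CPM in LL against 4443, 5203 and 5399 CPM in HL. All WT libraries were above all *phot* libraries in LL and below them in HL. The LL difference (*phot* minus WT, log2) was -0.28 on the CPM scale and -0.87 ± 0.16 after TMM scaling, and the HL difference was 1.54 and 1.23 ± 0.16. The response was -1.21 ± 0.14 in WT and 0.62 ± 0.11 in *phot*.

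*EPYC1* (Cre10.g436550, chromosome 10, on the CCM list), which encodes the linker protein that condenses Rubisco in the pyrenoid, was the 1 CCM gene among the 150. Its levels were 4594, 4498 and 3385 CPM in WT LL and 1318, 1102 and 1323 CPM in WT HL. In *phot* they were 1884.5, 1647 and 1974 CPM in LL and 2860.4, 2987 and 3029 CPM in HL. WT LL was thus the highest group and WT HL the lowest, with both *phot* groups between them and no overlap. The response was -1.74 ± 0.17 in WT and 0.69 ± 0.08 in *phot*.

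**Figure D3:**
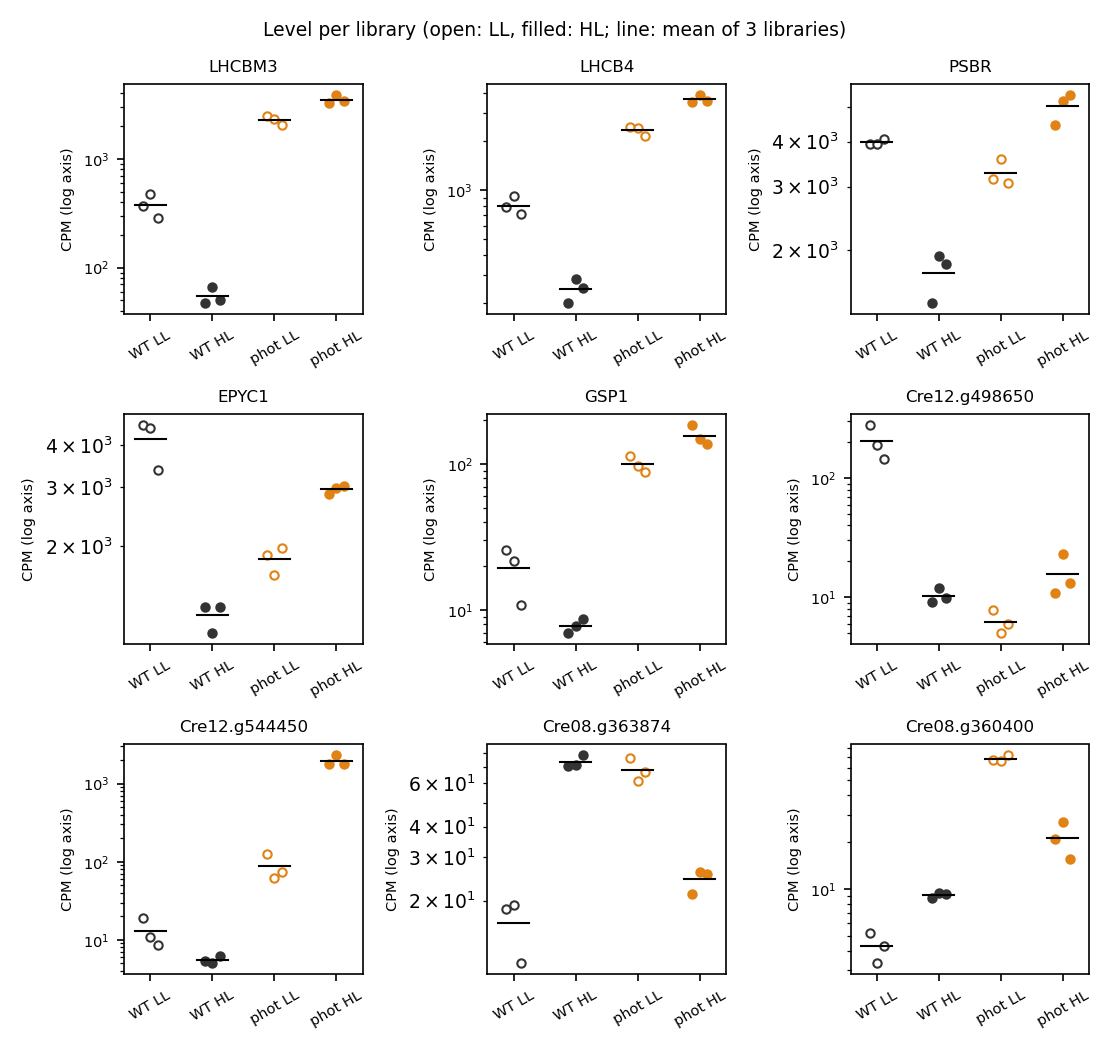
CPM per library (log axis, a separate scale in each panel) of 5 named and 4 unnamed genes of the 150 in WT LL, WT HL, *phot* LL and *phot* HL; open circles are LL libraries, filled circles HL libraries, and lines the mean of 3. *LHCBM3*, *LHCB4* and *GSP1* are higher in every *phot* library than in every WT library, whereas *EPYC1* and *PSBR* change order with light.

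These genes were read against the rest of their lists. The study's lists of 55 photoprotection genes, 73 CCM genes, 407 transcription factors and 10 regulators ranked in its PHOT-specific network were used, of which 50, 68, 343 and 9 reached 1 CPM in all groups. The 150 held 3 photoprotection genes, 1 CCM gene, 4 transcription factors and 0 of the regulators, and all 8 of these were WT-down. That is 6% of the photoprotection genes, 1.47% of the CCM genes and 1.17% of the transcription factors that reached the minimum, beside 1.20% of all 12481 genes.

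Of the other photosystem II antenna genes, 10 were measured that are not among the 150 (*LHCBM1*, *LHCBM2*, *LHCBM4* to *LHCBM9*, *LHCB5* and *LHCB7*). In WT, 9 of them were lower in HL and 1, *LHCB7*, was higher (edgeR's quasi-likelihood test, Benjamini-Hochberg adjusted p under 0.05, a call made for 35.1% of 14251 genes in the lower and 38.9% in the higher direction). In *phot*, 3 were lower (*LHCBM2*, *LHCBM4* and *LHCBM6*), 1 was higher (*LHCB7*) and 6 did not pass (background 27.7% lower and 31.2% higher). Their median log2 fold change was -2.89 in WT and -0.16 in *phot*. The response in *phot* exceeded that in WT for 9 of the 10 and was below it for *LHCB7* (background 23.5% above and 28.3% below). The 9 lower calls in WT and all 10 calls on this difference held under each of the 4 scalings and without each of the 12 libraries. The 3 lower calls in *phot* became 4 with upper-quartile factors, where *LHCBM1* passed, and 2 without *phot* LL library B, where *LHCBM2* at -0.33 no longer passed. *LHCBM3* is closely related to *LHCBM4*, *LHCBM6*, *LHCBM8* and *LHCBM9*, and *LHCBM2* to *LHCBM7*, so reads that match several copies make the split of counts among them uncertain.

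**Figure D4:**
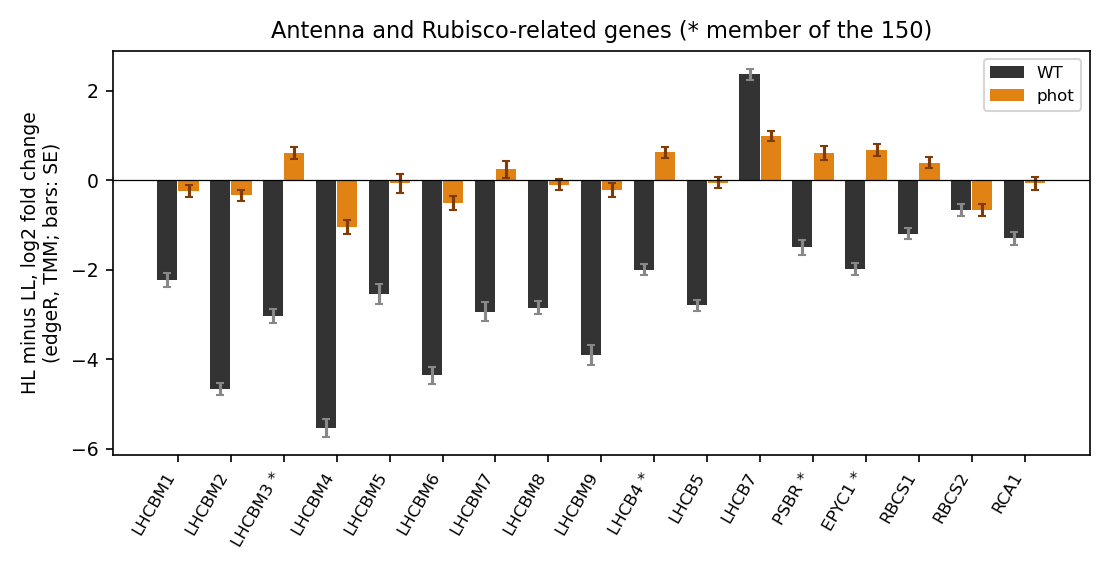
HL minus LL as log2 fold change (edgeR with TMM scaling; error bars are SE) in WT (black) and *phot* (orange) for 12 photosystem II antenna genes, *PSBR* and 4 Rubisco-related genes, with stars on genes of the 150. In WT every bar but that of *LHCB7* points down; in *phot* the starred genes point up, *RBCS1*, *LHCB7* and, within about its error, *LHCBM7* also do, and most other antenna bars are short.

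Of the CCM list, 3 further Rubisco-related genes are set beside *EPYC1*. *RBCS1*, which encodes a small subunit of Rubisco, changed by -1.19 ± 0.12 in WT and 0.39 ± 0.12 in *phot* (log2 fold change ± SE, edgeR's quasi-likelihood test, adjusted p 6.06e-07 and 0.0144). The *phot* value did not pass with upper-quartile factors (0.27), nor without any 1 of the *phot* libraries HL A, HL B, LL A and LL C (0.33 to 0.35). *RBCS2*, the other small-subunit gene, was lower in HL in both genotypes, at -0.67 ± 0.13 and -0.66 ± 0.13. *RCA1*, which encodes Rubisco activase, changed by -1.30 ± 0.15 in WT and -0.07 ± 0.15 in *phot*, where it did not pass. Over the 51 other photoprotection genes tested, 25 were higher and 21 lower in HL in WT, and 24 were higher and 10 lower in *phot*. The 71 other CCM genes tested gave 39 higher and 23 lower in WT and 35 higher and 11 lower in *phot*. Over all 14251 genes, 38.9% were higher and 35.1% lower in WT, and 31.2% and 27.7% in *phot*. These other genes held 2 photoprotection and 2 CCM genes lower in WT and higher in *phot*, passing in both. They were *ELI3* (-3.34 ± 0.15 and 0.47 ± 0.13), *COP7* (-0.84 ± 0.13 and 0.39 ± 0.13), *PSAG* (-1.39 ± 0.11 and 0.36 ± 0.11) and *RBCS1*. Their *phot* responses on the scale of the rule, 0.38 to 0.48, were below its minimum of 0.5.

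The 4 transcription factors were of different families. *GSP1* (Cre02.g109650, chromosome 2) encodes the homeodomain protein of plus gametes, which pairs with a partner from minus gametes to start the zygote programme. The study names it among its coregulators of photoprotection and CCM, a set not counted above. It had 25.6, 21.6 and 10.8 CPM in WT LL and 6.92, 7.74 and 8.61 CPM in WT HL. In *phot* it had 113, 97.4 and 88.6 CPM in LL and 185, 148 and 137 CPM in HL. All *phot* libraries were above all WT libraries, and the LL and HL libraries were separate in each genotype, narrowly so in WT. The response was -1.22 ± 0.37 in WT and 0.65 ± 0.16 in *phot*.

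Cre10.g418600 belongs to the VARL family, algal proteins with a SAND-like DNA-binding domain. It had 23.9, 20.2 and 16.0 CPM in WT LL and 2.04, 6.43 and 3.26 CPM in WT HL. The *phot* values were 34.7, 25.6 and 27.7 CPM in LL and 48.1, 54.8 and 35.1 CPM in HL. On the CPM scale the *phot* libraries were all above those of WT. After TMM scaling the genotype difference was -0.02 ± 0.23 in LL and 3.24 ± 0.26 in HL (*phot* minus WT, log2 ± SE). Cre06.g261450, of the HMG family of DNA-bending proteins, had 13.3 ± 0.92, 4.02 ± 1.07, 17.2 ± 2.47 and 30.1 ± 2.68 CPM in the same order of groups (mean ± SD, n = 3). Cre06.g293750, a CCCH zinc-finger (C3H) protein, had 7.16 ± 1.96, 3.97 ± 1.26, 14.9 ± 2.41 and 28.9 ± 1.79 CPM, and its WT libraries overlapped between LL and HL.

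The WT-down genes with the largest gap carry no name in the files or the annotation. Cre12.g544450 (chromosome 12) had the largest of all 150. Its levels were 19.01, 11.003 and 8.58 CPM in WT LL and 5.32, 5.03 and 6.28 CPM in WT HL. The *phot* values were 126, 62.8 and 74.8 CPM in LL and 1761, 2324 and 1791 CPM in HL. The larger part of its gap lay in *phot*, where the response was 4.46 ± 0.33, against -1.08 ± 0.32 in WT. Cre12.g498650 (chromosome 12) was the opposite case, with 279.7, 189 and 146 CPM in WT LL and 9.03 to 12.01 CPM in WT HL. In *phot* it had 4.97 to 7.80 CPM in LL and 10.8 to 23.1 CPM in HL. The WT LL libraries stood alone, far above the other 9, and the response was -4.18 ± 0.29 in WT and 1.20 ± 0.35 in *phot*.

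Cre11.g467594 and Cre08.g362600 had a WT response of the same kind. Cre11.g467594 went from 28.4 ± 5.06 to 4.99 ± 1.30 CPM in WT and from 2.62 ± 1.03 to 22.5 ± 4.94 CPM in *phot* (mean ± SD, n = 3). Cre08.g362600 went from 45.9 ± 10.3 to 4.03 ± 2.98 CPM in WT and from 2.70 ± 0.46 to 11.2 ± 4.60 CPM in *phot*. Cre13.g565800 and Cre01.g004157 also changed order between LL and HL. Cre13.g565800 went from 401 ± 37.5 to 68.0 ± 5.34 CPM in WT and from 130.2 ± 20.4 to 358 ± 19.4 CPM in *phot*. For Cre01.g004157 the values were 129.6 ± 25.6 and 14.03 ± 0.17 CPM in WT and 34.7 ± 1.97 and 67.1 ± 10.9 CPM in *phot*. By contrast, Cre16.g659700 and Cre17.g708750 were above WT in *phot* in both lights, although the LL difference of Cre17.g708750 was only 0.21 ± 0.15 after TMM scaling. Cre16.g659700 went from 94.6 ± 21.4 to 15.9 ± 5.41 CPM in WT and from 355 ± 48.5 to 921 ± 45.3 CPM in *phot*. Cre17.g708750 went from 4.31 ± 1.16 to 1.16 ± 0.20 CPM in WT and from 7.39 ± 1.58 to 59.8 ± 5.78 CPM in *phot*.

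No WT-up gene exceeded 353 CPM in a group mean, and none was on a list. Cre08.g363874 (chromosome 8) had the largest gap. It stood at 18.5, 19.2 and 11.1 CPM in WT LL and 70.3, 71.4 and 78.4 CPM in WT HL. The *phot* values were 75.9, 61.1 and 67.0 CPM in LL and 21.3, 26.3 and 25.8 CPM in HL. WT HL and *phot* LL overlapped at the high level, and WT LL and *phot* HL sat at a low level. The response was 2.11 ± 0.24 in WT and -1.44 ± 0.13 in *phot*. Cre12.g512100 had a similar crossing, from 15.9 ± 5.19 to 57.4 ± 7.69 CPM in WT and from 59.9 ± 7.14 to 36.7 ± 3.27 CPM in *phot*.

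Cre02.g144650 (chromosome 2) was high in 1 group only. It had 22.6, 16.8 and 18.9 CPM in WT HL, and 0.708 to 2.73 CPM in the other 9 libraries. Its response was 2.71 ± 0.31 in WT and -0.51 ± 0.19 in *phot*. After TMM scaling the *phot* response became -0.48, which no longer met the minimum size of 0.5. Cre06.g283900 was the WT-up gene with the lowest *phot* response, -2.30 ± 0.25 (32.3, 26.0 and 35.5 CPM in LL, 3.82, 6.69 and 6.21 CPM in HL), beside 0.80 ± 0.28 in WT. There *phot* HL was the group that stood apart.

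In the remaining 4 of the 8 leading WT-up genes the *phot* libraries were above those of WT in LL, and the mean CPM of *phot* was also above that of WT in HL. The LL order held for Cre08.g363874, Cre12.g512100 and Cre06.g283900 as well, but their mean in HL was lower in *phot*. Cre08.g360400 had 4.29 ± 0.95 and 9.12 ± 0.34 CPM in WT LL and HL and 68.7 ± 3.46 and 21.2 ± 5.70 CPM in *phot* LL and HL (mean ± SD, n = 3). Cre07.g321750 had 2.13 ± 0.98 and 10.3 ± 2.84 CPM in WT and 27.4 ± 2.52 and 15.0 ± 2.91 CPM in *phot*. Cre14.g619400 had 2.67 ± 1.04 and 9.27 ± 0.62 CPM in WT and 21.8 ± 2.78 and 9.51 ± 1.56 CPM in *phot*, so that the libraries of both genotypes overlapped in HL, as they did for Cre07.g321750 and Cre04.g215050. Cre04.g215050 (chromosome 4) had 4.16, 4.61 and 2.40 CPM in WT LL and 35.6, 8.38 and 13.99 CPM in WT HL. The *phot* values were 64.0, 55.5 and 45.1 CPM in LL and 33.3, 18.7 and 26.0 CPM in HL. Its WT response of 2.10 ± 0.62 was drawn up by library A of WT HL, and leaving that library out gave 1.37.

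Cre04.g215050 lies next to Cre04.g215000, the only pair of the 150 that were direct neighbours in the RefSeq annotation, and both were WT-up. Cre04.g215000 had 11.7 ± 0.42 and 28.0 ± 1.19 CPM in WT LL and HL and 11.8 ± 0.67 and 7.22 ± 0.50 CPM in *phot* LL and HL. On the CPM scale the genotypes were level in LL, whereas after TMM scaling *phot* was at -0.56 ± 0.12 relative to WT (log2 ± SE). With at most 4 genes between them there were 9 pairs, of which 8 had the same direction. The number expected without any grouping was not computed, so nothing is read from these pairs. The WT-up genes with the highest mean CPM, not scaled to gene length, were Cre09.g415600 (172 ± 27.2 and 307 ± 42.7 CPM in WT, 353 ± 43.4 and 188 ± 5.01 CPM in *phot*) and Cre13.g581850 (69.3 ± 11.8 and 167 ± 31.9 CPM in WT, 115 ± 11.7 and 80.5 ± 5.12 CPM in *phot*). The 150 genes were spread over all 17 chromosomes, from 1 gene on chromosome 15 to 16 on each of chromosomes 1, 2, 6 and 12, and 1 was on an unplaced sequence. As a share of each chromosome's genes at 1 CPM in all groups, this was 0.39% (chromosome 17) to 2.12% (chromosome 4). The share of all 12481 genes was 1.20%. The median length of the 150 in the annotation was 4720.5 bases, against 4696 for the 12481 genes.

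The limit of the set was gradual. The last genes taken were Cre06.g293750, described above, with a gap of 1.63 between the responses, and Cre14.g619133 (169.8 ± 19.6 and 84.9 ± 28.7 CPM in WT, 114 ± 9.46 and 178 ± 5.57 CPM in *phot*), also with 1.63. The first genes not taken were Cre03.g187500 and Cre12.g541250, with 1.62 each.

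Whether the genotypes changed order between the lights was not fixed by the rule alone. The sense of a crossing was fixed by it, since each direction allows only 1 sense. On the CPM scale 45 of the 99 WT-down genes crossed, with WT above *phot* in LL and below it in HL, 42 were above WT in *phot* in both lights and 12 were below it in both. Of the 51 WT-up genes, 36 crossed in the other sense, 11 were above WT in *phot* in both lights and 4 below. TMM scaling changed these numbers to 56, 28 and 15 for WT-down genes and to 29, 6 and 16 for WT-up genes. These are orders of group means, with no test.

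The measure that the choice of genes left free was the genotype difference averaged over LL and HL, tested with edgeR's quasi-likelihood test over 14251 genes (Benjamini-Hochberg adjusted p under 0.05). Of the 150 genes, 64 were higher and 70 lower in *phot*, and 16 did not pass. Over all genes tested, 46% were higher and 33.6% lower, and over the 12481 genes 44.3% and 34.5%. Of the 51 WT-up genes, 13 (25.5%) were higher and 33 (64.7%) lower in *phot*, with a median log2 difference of -0.57. Of the 99 WT-down genes, 51 (51.5%) were higher and 37 (37.4%) lower, with a median of 0.33, where the median over all genes tested was 0.15. The number of lower genes in the WT-up group was thus well above the background, and the WT-down group was near it. No test of the difference between the groups was made.

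**Figure D5:**
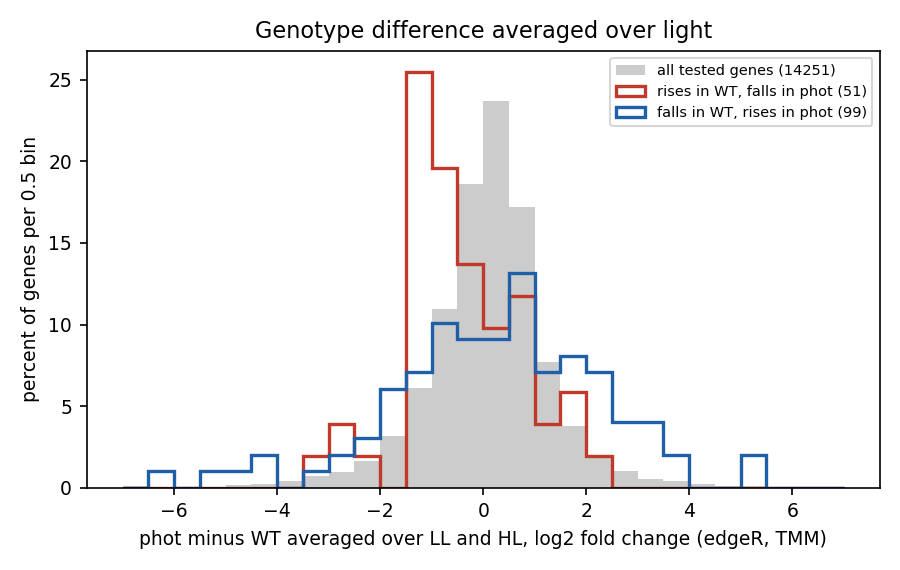
Distribution of the genotype difference averaged over LL and HL (*phot* minus WT, log2 fold change, edgeR with TMM scaling; percent of genes per bin of 0.5) for all 14251 genes tested (grey), the 51 WT-up genes (red) and the 99 WT-down genes (blue). The WT-up genes have their median at -0.57 and the WT-down genes at 0.33, and the latter extend from -6.02 to 5.26.

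The scaling moved this split. With library totals, 76 of the 150 were higher and 52 lower (18 and 23 of the WT-up, 58 and 29 of the WT-down genes), but the background moved too, to 64.4% higher and 19.2% lower, and the median over all genes went from 0.15 to 0.59. With median-of-ratios factors 60 were higher and 73 lower (background 39.9% and 38%), and with upper-quartile factors 70 and 63 (background 51.4% and 29.3%). Of all calls, 57.8% were in the higher direction with TMM factors, 77.0% with library totals, 51.2% with median-of-ratios factors and 63.7% with upper-quartile factors.

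Among the genes with a name the averaged difference was largest for *LHCBM3*, 3.87 ± 0.11 (log2 ± SE, edgeR's quasi-likelihood test, adjusted p 6.53e-13). It was 2.28 ± 0.09 for *LHCB4* (adjusted p 1.6e-11) and 2.92 ± 0.14 for *GSP1* (adjusted p 1.37e-10), and all 6 *phot* libraries were above all 6 WT libraries in these 3 genes. The other 3 transcription factors were also higher in *phot*, Cre10.g418600 by 1.61 ± 0.17, Cre06.g293750 by 1.52 ± 0.11 and Cre06.g261450 by 1.18 ± 0.10. *PSBR* did not pass at 0.18 ± 0.11 (edgeR, adjusted p 0.152) but passed without WT LL library C (0.23), with library totals (0.63) and with upper-quartile factors (0.30). *EPYC1* was lower by the test, at -0.42 ± 0.09 (edgeR, adjusted p 0.000727), yet at 0.03 with library totals, so its averaged direction depended on the scaling.

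The leading genes without names spanned a wide range. Cre12.g544450 was higher in *phot* by 5.17 ± 0.20, Cre16.g659700 by 3.44 ± 0.13 and Cre17.g708750 by 2.79 ± 0.12. Cre12.g498650 was lower, at -2.66 ± 0.17, as were Cre08.g362600, at -1.77 ± 0.29, and Cre11.g467594, at -1.10 ± 0.20. Among WT-up genes, Cre08.g360400 was higher by 2.15 ± 0.13, Cre04.g215050 by 1.70 ± 0.30, Cre07.g321750 by 1.67 ± 0.17 and Cre14.g619400 by 1.09 ± 0.12, whereas Cre02.g144650 was at -2.60 ± 0.20, Cre04.g215000 at -1.42 ± 0.08 and Cre06.g283900 at -1.33 ± 0.14. All of these passed the test under each scaling and without each library, but their values moved with the scaling. With library totals all of these values were shifted upwards but kept their sign. Examples are Cre11.g467594 (-0.63), Cre06.g283900 (-0.89) and Cre12.g544450 (5.62). The median over all genes tested rose from 0.15 to 0.59. Cre08.g363874 passed narrowly at -0.20 (edgeR, adjusted p 0.0482), turned to 0.24 with library totals, where it did not pass, and no longer did without WT HL library C, *phot* LL library B, or WT LL library A or B (-0.34 to -0.17 over all libraries left out).

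The extremes lay outside the genes chosen by name or rank and are given after their values were seen. Cre02.g081700 was at 2.20 and 1.09 CPM in WT LL and HL and at 42.1 and 155 CPM in *phot* (averaged difference 5.26 ± 0.14). Cre18.g749547 was at 253 and 107 CPM in WT and at 2.12 and 5.58 CPM in *phot* (-6.02 ± 0.14). Cre06.g282800 was at 2080 and 536 CPM in WT and at 27.5 and 71.5 CPM in *phot* (-5.03 ± 0.19). All 3 were WT-down genes. In both lights Cre02.g081700 was far lower in WT, whereas Cre18.g749547 and Cre06.g282800 were far lower in *phot*.

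The choice of genes was repeated with each library left out. Between 127 (without WT HL library A) and 143 (without WT HL library C) of the 150 were chosen again.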

How the data were processed

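Stranded mRNA libraries were aligned by the authors with STAR (2.5.3a, per the submitters' processing notes) to Phytozome assembly version 5 and counted with HTSeq-count on the reverse strand. The version of that counter is not given in the sources used here. The deposited table holds raw counts of 17741 genes in 12 columns, not normalized; 0 columns of per-sample values were left out. Group names were read from the column names, which give no replicate number. CPM were computed from library totals (27136674 to 33906264 counts). Responses used a pseudocount of 1. Genes above 1 CPM in at least 4 libraries (14251) were fitted with the quasi-likelihood method of edgeR 4.0.16 in R 4.3.3 (limma-voom used version 3.58.1), with TMM factors, 1 coefficient per group and Benjamini-Hochberg adjustment at 0.05. The code was tested on simulated data. Chi-square per degree of freedom between replicates, over genes with at least 20 counts, was 7.69 to 67.66, so no libraries were duplicates.

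Alternatives were library totals, median-of-ratios and upper-quartile factors, other pseudocounts and minima, a mean of log2 values, no filter, limma-voom, DESeq2 1.42.0 and leaving out each library. The antenna counts and the order of the genotypes under other scalings were added after seeing the data. The genes and lists were chosen with earlier results of these data known. The genes named were the 8 with the largest gap in each direction, all on the study's lists, those at the limit of the set, the 2 with the highest mean CPM in each direction (*PSBR* and *EPYC1* among WT-down genes) and adjacent pairs. Chromosomes and neighbours come from the RefSeq annotation of Chlamydomonas_reinhardtii_v5.5, which matched 17738 identifiers. Names come from the study's lists. Sequences were not used here.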

Additional observations from a re-analysis of the deposited data

Results flagged for a closer look

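The light response of 12 antenna and Rubisco-related genes outside the 150 differed between the genotypes by the interaction term of edgeR's quasi-likelihood test, with a Benjamini-Hochberg adjusted p of at most 0.00022. As the response in *phot* minus that in WT on the log2 scale, it was 4.50 for *LHCBM4*, 4.32 for *LHCBM2*, 3.85 for *LHCBM6*, 3.69 for *LHCBM9*, 3.18 for *LHCBM7*, 2.75 for *LHCBM8*, 2.74 for *LHCB5*, 2.47 for *LHCBM5* and 1.99 for *LHCBM1*. It was -1.38 for *LHCB7*, 1.58 for *RBCS1* and 1.23 for *RCA1*. *RBCS2*, also looked at, did not pass (0.015, adjusted p 0.953 in the same test). Over all 14251 genes tested, 23.5% were called above 0 and 28.3% below 0. Of the 51 photoprotection genes tested outside the 150, 18 were above and 18 below. Of the 71 such CCM genes, 24 were above and 16 below. The values for the named antenna genes of the 150 are not listed here, since the rule used them. *LHCBM4* and *LHCBM9* were close to 1 CPM in WT HL (1.59 ± 0.35 and 0.88 ± 0.43 CPM, mean ± SD, n = 3), so their WT responses rest on few counts at that end.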

How the results depend on the processing

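All 150 genes kept opposite signs under TMM, median-of-ratios and upper-quartile factors, and 135, 123 and 105 still met the thresholds (40, 33 and 27 of the 51 WT-up and 95, 90 and 78 of the 99 WT-down genes). With a minimum mean of 5 CPM 93 of the 150 did. The genes that met the thresholds, 264 in all, became 138 with a pseudocount of 5, 170 with a minimum mean of 5 CPM and 31 with a minimum change of 1. Without 1 library, 137 to 150 of the 150 and 245 to 287 genes in all met the thresholds, 58 to 65 of the 150 were higher and 68 to 74 lower in *phot* averaged over light. With library totals the averaged difference changed sign for Cre01.g004157 (0.18), Cre13.g565800 (0.39, and 0.0526 with upper-quartile factors), Cre08.g363874 (0.24), *EPYC1* (Cre10.g436550, 0.0326), Cre09.g415600 (0.17) and Cre14.g619133 (0.25). The median over all genes tested went from 0.15 to 0.59 with library totals and to 0.27 with upper-quartile factors. The cause was not tested. Of the other values for single genes, 1118 stayed the same, 73 moved by more than the spread, 15 passed newly and 8 no longer passed. Calls on the averaged difference also changed for Cre12.g512100 without WT LL library A or B, Cre13.g565800 without *phot* LL library A and Cre14.g619133 without WT HL library A or *phot* LL library C. No paired analysis was possible because the columns carry no replicate number. The lowest count of any of the 150 in a library was 6, which limits the precision of the least abundant genes.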

Other observations

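Past the thresholds but outside the 150 were 114 further genes, 65 of them higher in HL in WT and lower in *phot* and 49 the reverse. This split depends on the scaling: over all genes past the thresholds it was 116 and 148 with library totals, 63 and 204 with TMM factors, 46 and 207 with median-of-ratios factors and 51 and 184 with upper-quartile factors. The 114 genes held 5 transcription factors and the 150 held 4, where 343 of the 12481 genes were on that list. Nothing is read from these small counts. In 3 of the 5 transcription factors the WT response was positive and the *phot* response negative. These were Cre01.g008200 (C3H family, 0.62 ± 0.26 and -0.92 ± 0.13, SE, n = 3 libraries per group), Cre03.g184600 (RWP-RK family, 0.54 ± 0.28 and -0.94 ± 0.08) and Cre09.g401219 (TRAF family, 0.88 ± 0.20 and -0.60 ± 0.18). The reverse held for Cre16.g675700 (bZIP family, -0.72 ± 0.22 and 0.56 ± 0.06) and Cre09.g390000 (SNF2 family, -0.54 ± 0.14 and 0.62 ± 0.15). All are descriptions with no test.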
